A study of Mus musculus with 16 samples.

Results

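The samples described here are the 8 libraries of the Atf4 exon 2-3 line, 4 from conditional knockout (cKO) ventricles and 4 from the line's own controls, out of 16 libraries in the series. They were taken by the column names of the deposited table, which give the line, the group and the replicate number. RNA was sequenced from ventricles microdissected from mouse embryos at E11.5, to ask about the role of ATF4 as the heart forms. In the cKO group, exons 2 and 3 of Atf4 were flanked by loxP sites and were removed by the Xmlc2-Cre transgene, which the labels describe as specific to cardiomyocytes. Cells of the ventricle other than cardiomyocytes are therefore outside the reach that the labels give to the transgene. The genotype label reads C57BL/6 WT for both groups, and the alleles carried by the controls are not stated. The embryos received no treatment, and the labels put all 8 libraries in batch 1. The other 8 libraries are the cKO and controls of a line in which exon 2 alone is flanked, and the labels put them in batch 2. The extraction text in the labels names cultured cortical neurons, whereas the tissue labels name the ventricle. The descriptions also give both an mRNA library preparation and a depletion of ribosomal RNA.

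ATF4 is a transcription factor of the integrated stress response. Its translation increases when a general slowing of translation is triggered by amino acid shortage or by misfolded protein, and it switches on genes for amino acid uptake and synthesis, tRNA charging and one-carbon metabolism. p53, the product of Trp53, is a transcription factor that accumulates after DNA damage and other stresses and switches on genes for cell cycle arrest, repair and death. At mid-gestation the ventricle wall grows mainly by division of cardiomyocytes, under an epicardial layer whose cells later give rise to fibroblasts.

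The values are the authors' TPM (a level per length of transcript, scaled so that every library has the same total) for 5921 rows on chromosomes 1 and 10 and part of chromosome 11. These rows carried between 15.2% and 17.1% of a library's TPM, and depth is unknown because TPM does not keep it. Atf4 itself was not analysed here, so the direction of each label could not be checked against the targeted gene. Pearson's r between libraries of the same group, over the tested genes on the log2(TPM + 1) scale, was 0.984 to 0.991. Cardiomyocyte genes were among the highest in all 8 libraries: Tnnt2, which encodes cardiac troponin T, averaged 4854 ± 316 TPM over the controls and 4929.7 ± 92.2 TPM over the cKO libraries (SD, n = 4 each), and the atrial light chain gene Myl4 averaged 5543 ± 156 TPM over the controls and 5479 ± 301 TPM over the cKO libraries. Of 13 neural and glial markers held, 9 were under 1 TPM in every library, Map2, Syt1, Mapt and Gfap among them. Control replicate 3 had the lowest median, 3.83 on the log2(TPM + 1) scale, against 3.98 to 4.06 in the other 7 libraries. The summed TPM of 10 erythroid genes was 3007 to 4567 TPM in the control libraries and 1522 to 11312 TPM in the cKO libraries, with the highest value in cKO replicate 4 and the next in cKO replicate 2.

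Of 2620 genes with a mean of at least 1 TPM over the 16 libraries, 176 (6.72%) passed an adjusted p of 0.05 by limma on log2(TPM + 1), where a low gene's change is understated. There were 109 genes that rose in the cKO (4.16%) and 67 that fell (2.56%). An unadjusted p under 0.05 was met by 552 genes (21.1%). The changes were mostly small. The median absolute log2 fold change of the called genes was 0.42, 47 of those that rose and 12 of those that fell reached 0.5, and 5 and 1 reached 1. The groups did not overlap in 381 genes (14.5%), 242 of them (9.24%) with the cKO higher and 139 (5.31%) with it lower. Leaving out 1 library at a time left between 70 calls (without cKO replicate 3) and 190 (without control replicate 3), and 60 genes, 40 higher and 20 lower, were called in all 8 such fits. The split into higher and lower moved with the scaling: 61.9% of the calls were higher in the TPM as deposited, 50.5% after quantile normalisation and 41.4% after centring each library on its median, with 142 higher (5.42%) and 201 lower (7.67%). Leaving out control replicate 3 gave 44.7% higher, and leaving out control replicate 4 gave 75.3%. The p-values measure the spread between these libraries, and the sample titles do not say whether a library is 1 embryo or a pool.

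**Figure D1:**
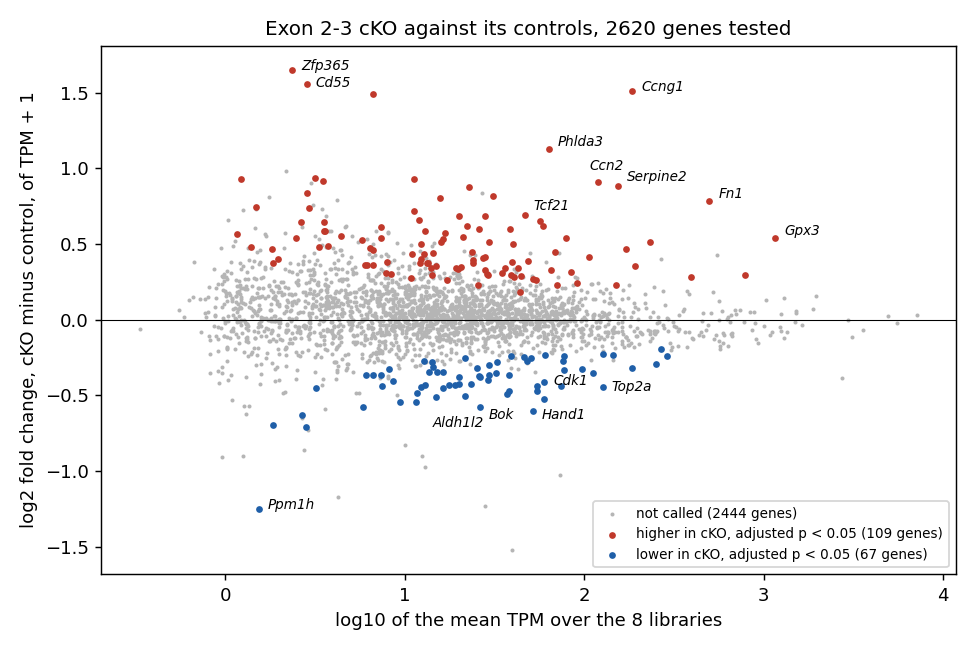
Log2 fold change of TPM + 1 (cKO minus control, vertical axis) against the log10 of the mean TPM over the 8 libraries (horizontal axis) for the 2620 genes tested, with genes at an adjusted p under 0.05 in red (109 higher) or blue (67 lower). Most coloured points lie within 1 of the zero line, and Zfp365, Cd55, Ccng1, B230206L02Rik and Phlda3 stand above 1.

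The genes were then described by 38 lists of pathways and cell types, of which 631 of 727 genes were held and 553 were tested. The called genes included 67 members of these lists. The lists were chosen with earlier results of these data known, so their shares and medians are descriptions and not tests. The p53 target list held the largest share of genes that rose, and the mitosis list the largest number that fell.

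**Figure D2:**
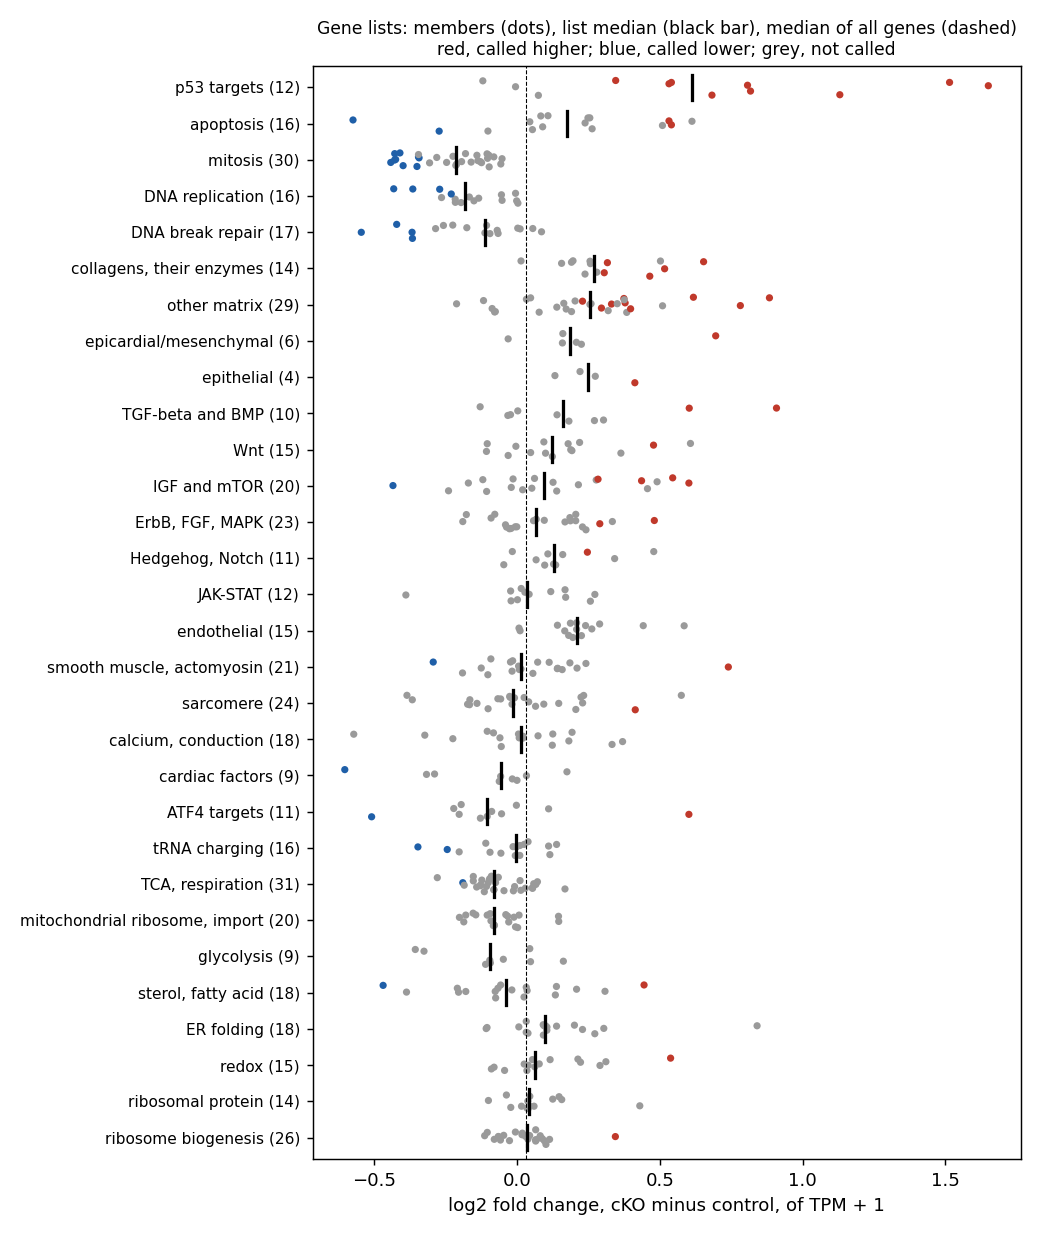
Log2 fold change of TPM + 1 (cKO minus control, horizontal axis) of every tested member of 30 lists, with the number tested in brackets, the list median as a black bar and the median of all genes (0.03) as a dashed line. The p53 target median of 0.61 lies farthest to the right, and all 30 mitosis genes lie to the left of 0.

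Most of the tested genes that p53 is known to activate rose in the cKO. Of 12, 9 rose (4.16% of all genes did), none fell, and the list median was 0.61 against 0.03 over all genes. They were Ccng1, Phlda3, Btg2, Ercc5, Ptpn14, Zfp365, Mdm2, Apaf1 and Perp. The promoter windows of the tested genes that are in the RefSeq table (1885 genes, 250 bases before to 50 after the start, GRCm38.p6) were searched on both strands for the p53 response element, a run of 20 bases in which a motif of 10 bases stands next to a repeat of itself, with up to 2 mismatches to the consensus and the central C and G of each repeat kept. The element was found in 8 of 1885 windows (0.424%) and in 2 of the 11 windows of the p53 targets. The windows of Phlda3, Btg2, Ercc5, Ptpn14, Mdm2 and Apaf1, which also rose, did not hold it, and Perp had no window. The 2 windows among the p53 targets that hold it are shown because they belong to the gene that rose with the smallest adjusted p, Ccng1, and to the one that rose by the largest log2 fold change, Zfp365. Capitals mark the element, which begins 195 bases before the start of Ccng1 with 1 mismatch and 63 bases before that of Zfp365 with 2. Starts are those of the promoter table, and that of Ccng1 lies 23 bases inside the end of the gene's row in the files. The sequences are from RefSeq, 5′ to 3′ on the minus strand, at chr11:40755442-40755501 and chr10:67912686-67912745.

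Ccng1: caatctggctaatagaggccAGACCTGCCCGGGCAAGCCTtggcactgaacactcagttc
Zfp365: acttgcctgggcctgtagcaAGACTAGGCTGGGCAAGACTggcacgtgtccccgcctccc

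The other windows with the element belonged to Mir22hg, which rose, Cdc6, which fell, and Alox12, Pid1, Ppp2ca and Rab21, which were not called. A match is a description of the letters and does not show that a factor binds there.

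Ccng1 (chr11:40748552-40755309, minus strand) encodes cyclin G1, a p53 target that takes part in the return from arrest. Its level was 97.9, 94.05, 93.8 and 95.7 TPM in the control libraries and 282, 279, 279.7 and 258 TPM in the cKO libraries (log2 fold change 1.51 ± 0.046 SE, adjusted p 5.32e-08 by limma). Phlda3 (chr1:135766085-135769134, plus strand), which encodes a pleckstrin-domain protein that restrains Akt, was at 40.02, 38.7, 34.001 and 44.8 TPM in the control libraries and 91.3, 83.2, 81.5 and 92.4 TPM in the cKO libraries (log2 fold change 1.13 ± 0.083 SE, adjusted p 8.48e-05 by limma). Both genes were at more than 2 times the control mean in every cKO library, and the groups did not overlap. Zfp365, which has been tied to genome stability, was at 0.684, 0.592, 0.498 and 0.684 TPM in the control libraries and 4.65, 4.23, 3.51 and 3.92 TPM in the cKO libraries, the largest fold of the list from a low level (log2 fold change 1.65 ± 0.11 SE, adjusted p 3.81e-05 by limma). Btg2, an antiproliferative gene, was at 20.4, 23.4, 22.2 and 22.5 TPM in the control libraries and 39.2, 38.96, 37.8 and 43.04 TPM in the cKO libraries (log2 fold change 0.82 ± 0.063 SE, adjusted p 1.07e-04 by limma). In Btg2 the lowest cKO library was far above the highest control. Ercc5, which encodes the XPG nuclease of nucleotide excision repair, rose from 11.1 ± 0.983 to 20.2 ± 1.18 TPM (log2 fold change 0.81, limma adjusted p 2.98e-04). Ptpn14, a phosphatase gene of the YAP pathway, rose from 15.2 ± 1.04 to 25.04 ± 0.847 TPM (log2 fold change 0.68, limma adjusted p 2.98e-04). The 8 genes other than Mdm2 were called in all 8 leave-one-out fits.

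Mdm2, which encodes the ubiquitin ligase that limits p53, rose less, from 37.7 ± 3.41 to 48.2 ± 4.12 TPM (log2 fold change 0.35 ± 0.082 SE, adjusted p 0.0361 by limma). It was called in 2 of the 8 leave-one-out fits, with the largest adjusted p at 0.11 without cKO replicate 3. The 3 targets not called were Sesn1 (log2 fold change -0.12, adjusted p 0.368 by limma), Ppm1d, the feedback phosphatase (0.07, adjusted p 0.701), and E2f7, a repressor of cell cycle genes (-0.01, adjusted p 0.986). Trp53 itself averaged 77.7 ± 9.54 TPM over the controls and 84.2 ± 6.99 TPM over the cKO libraries (log2 fold change 0.12, limma adjusted p 0.484), and none of the 6 regulators of p53 tested, Trp53, Cop1, Sirt1, Pias4, Usp15 and Wrap53, was called. Ptpn14 and Apaf1 overlap other genes, and the labels do not say if reads were counted by strand, so their values are uncertain.

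Genes of apoptosis moved in both directions. Of 16 tested, 2 rose (4.16% of all genes did) and 2 fell (2.56% did), with a median of 0.17. Both that rose are also p53 targets. Perp, which encodes a membrane protein of p53-dependent death and of cell junctions, was at 70.2, 61.5, 56.2 and 67.97 TPM in the control libraries and 90.8, 93.9, 89.3 and 98.9 TPM in the cKO libraries (log2 fold change 0.54 ± 0.073 SE, adjusted p 0.00277 by limma). Apaf1, the scaffold of the apoptosome, was at 13.3, 13.8, 11.6 and 13.6 TPM in the control libraries and 19.1, 19.8, 19.4 and 19.1 TPM in the cKO libraries (log2 fold change 0.53 ± 0.068 SE, adjusted p 0.00213 by limma). Neither gene's groups overlapped. Bok, a BCL2 family member that promotes death, fell, from 34.996, 30.7, 28.5 and 31.9 TPM to 18.2, 20.1, 19.9 and 25.6 TPM (log2 fold change -0.57 ± 0.10 SE, adjusted p 0.013 by limma), with cKO replicate 4 nearest to the controls. Map3k5, which encodes the stress kinase ASK1, fell from 14.04 ± 0.692 to 11.4 ± 0.492 TPM (log2 fold change -0.27, limma adjusted p 0.0384) and kept its call in 1 of 8 leave-one-out fits (0.118 without control replicate 1). Casp8, Bcl2, Cflar and Tnfaip3 were not called (adjusted p 0.495, 0.145, 0.684 and 0.748 by limma).

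**Figure D3:**
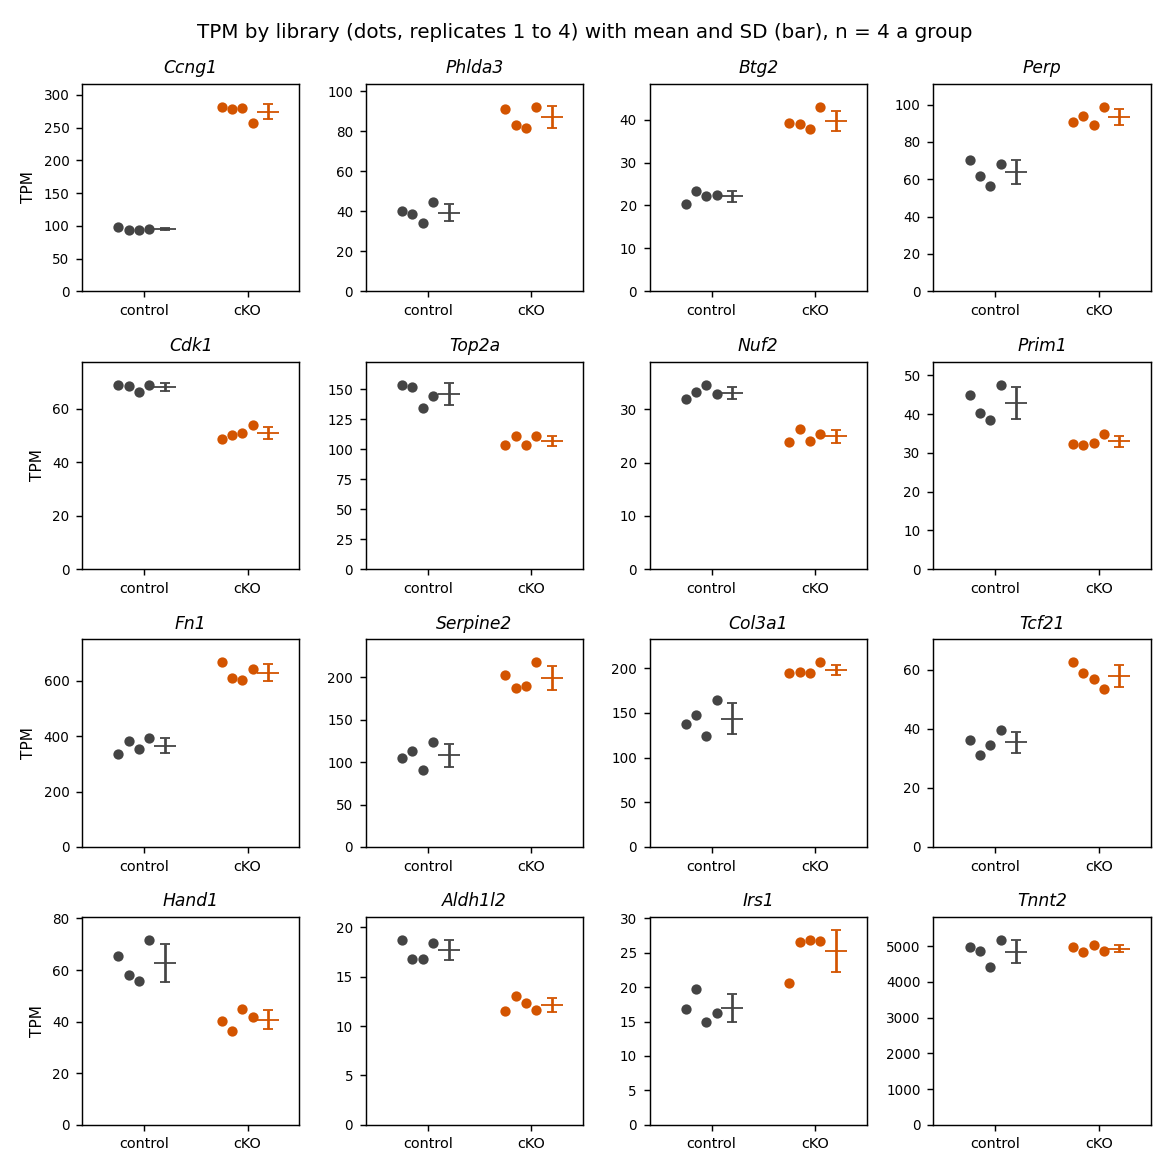
TPM (vertical axis, from 0) of 16 genes in each control and cKO library, with the mean and SD (n = 4) beside the dots. In 15 of the panels the groups stand apart, and in Tnnt2, shown as a cardiomyocyte reference, they overlap.

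Of the genes of cell division, 9 fell in the cKO and none rose. All 30 mitosis genes tested had a negative log2 fold change, between -0.44 and -0.05, with a median of -0.21, where 58.5% of all genes were positive. Those that fell (2.56% of all genes did) were Cdk1, Top2a, Cenpf, Cenpw, Aspm, Nuf2, Nek2, Hmmr and Spdl1, and with 1 library left out between 5 (without cKO replicate 1) and 12 (without control replicate 3) fell. After median centring, 18 of the 30 were called lower, where 7.67% of all genes were. Many promoters of mitotic genes are known to hold the cell cycle genes homology region TTTGAA together with CCAAT boxes. TTTGAA, searched on both strands, was in 11.6% of all 1885 windows, in 52% of the 25 mitosis windows and in 77.8% of the 9 of genes that fell. CCAAT was in 38.4% of all windows and in 84% of the mitosis windows, and both were in 4.99% and 52%. Among the windows of all genes that fell, 34.7% of 49 held TTTGAA, and 10.7% of the 84 windows of genes that rose did. The 2 mitosis genes with the smallest adjusted p, Cdk1 and Top2a, and Cenpw, where the motifs overlap, are shown to let the motifs be read in place. Capitals mark either motif on either strand, so CCAAT may read ATTGG and TTTGAA may read TTCAAA. The table's starts of Top2a and Cenpw lie 10 and 63 bases inside the gene's row, so the stretch of Cenpw is within that row. The sequences are from RefSeq (GRCm38.p6), 5′ to 3′ on the minus strand, at chr10:69352913-69353130, chr11:99024197-99024426 and chr10:30200550-30200579.

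Cdk1: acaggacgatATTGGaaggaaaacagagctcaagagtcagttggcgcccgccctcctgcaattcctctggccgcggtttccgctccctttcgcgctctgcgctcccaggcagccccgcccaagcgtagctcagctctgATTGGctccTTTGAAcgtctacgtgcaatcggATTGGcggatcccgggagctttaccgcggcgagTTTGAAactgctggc
Top2a: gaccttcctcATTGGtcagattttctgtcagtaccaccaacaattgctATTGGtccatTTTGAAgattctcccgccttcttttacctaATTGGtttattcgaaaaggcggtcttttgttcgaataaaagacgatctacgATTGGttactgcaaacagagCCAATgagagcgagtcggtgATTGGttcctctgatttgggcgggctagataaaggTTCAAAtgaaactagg
Cenpw: cgtccggcggCCAATTCAAAtcgaccactc

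Cdk1 (chr10:69335146-69352912, minus strand), the kinase that drives entry into mitosis, was at 69.1, 68.4, 66.2 and 69.02 TPM in the control libraries and 48.9, 50.2, 51.1 and 54.05 TPM in the cKO libraries (log2 fold change -0.41 ± 0.049 SE, adjusted p 0.00143 by limma). Top2a (chr11:98992947-99024199, minus strand), the topoisomerase that untangles chromosomes, was at 154, 152, 134 and 144 TPM in the control libraries and 104, 111, 103 and 111 TPM in the cKO libraries (log2 fold change -0.44 ± 0.057 SE, adjusted p 0.00213 by limma). In both genes every cKO library was below every control. Nuf2, a subunit of the kinetochore's NDC80 complex, was at 31.9, 33.2, 34.7 and 32.9 TPM in the control libraries and 23.9, 26.4, 23.99 and 25.4 TPM in the cKO libraries (log2 fold change -0.40 ± 0.057 SE, adjusted p 0.00379 by limma). Cenpf, a kinetochore protein gene, fell from 22.98 ± 1.46 to 16.9 ± 1.08 TPM, and Nek2, a centrosome kinase gene, fell from 22.005 ± 0.468 to 16.1 ± 1.796 TPM (log2 fold changes -0.43 and -0.43, limma adjusted p 0.00816 and 0.0134). These 5 genes were called in all 8 leave-one-out fits. Cenpw, Hmmr and Spdl1 were called in 5 of those fits and Aspm, a spindle pole gene, in 3 (largest adjusted p 0.0598 without cKO replicate 2, 0.0578 without cKO replicate 3, 0.0612 without control replicate 1 and 0.105 without control replicate 1). Top2a and Nek2 overlap a gene on the same strand and are uncertain.

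The replication list had 4 of 16 genes that fell (2.56% of all genes did), none that rose and a median of -0.18, with 15 of 16 negative, where 58.5% of all genes were positive. Cdc6, which loads the replicative helicase, was at 15.2, 15.1, 13.1 and 16.2 TPM in the control libraries and 11.1, 9.33, 10.9 and 11.9 TPM in the cKO libraries (log2 fold change -0.43 ± 0.091 SE, adjusted p 0.0244 by limma). Prim1, the primase subunit, was at 45.05, 40.3, 38.6 and 47.7 TPM in the control libraries and 32.3, 32.1, 32.5 and 34.98 TPM in the cKO libraries (log2 fold change -0.37 ± 0.073 SE, adjusted p 0.0197 by limma). Pold2, a subunit of polymerase delta, and Rpa1, which coats single-stranded DNA, fell by 0.23 and 0.27 on the log2 scale (limma adjusted p 0.0436 and 0.0439). The groups overlapped in Rpa1, where control replicate 3 was within the cKO range, and did not in the other 3. None of the 4 was called in all 8 fits: the largest adjusted p was 0.075 without control replicate 1 for Cdc6, 0.0656 without control replicate 1 for Prim1, 0.119 without control replicate 1 for Pold2 and 0.131 without cKO replicate 3 for Rpa1. With 1 library left out, the list had between 0 (without control replicate 1 or cKO replicate 1, 2 or 3) and 7 (without control replicate 3) genes that fell, and between 1 and 3 without each of the others. TTTGAA was in 0 of the 16 replication windows, and CCAAT was in 75%. Pold2 and Rpa1 share their loci with genes of the opposite strand.

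In the list of DNA break repair, 4 of 17 genes fell (2.56% of all genes did) and none rose, with a median of -0.11. With 1 library left out, 1 fell (without control replicate 2, control replicate 4, cKO replicate 1 or cKO replicate 3), 2 (without control replicate 1 or cKO replicate 4) or 3. Parpbp, a restraint on homologous recombination, was at 11.8, 11.9, 10.6 and 10.7 TPM in the control libraries and 7.16, 8.49, 6.27 and 7.75 TPM in the cKO libraries (log2 fold change -0.55 ± 0.094 SE, adjusted p 0.0105 by limma), with no overlap. It was called in all 8 leave-one-out fits, although it overlaps other genes on both strands and is uncertain. Bard1, the partner of BRCA1, Rad51c and Ube2t, the ubiquitin-conjugating enzyme of the Fanconi pathway, fell by 0.37, 0.37 and 0.42 (limma adjusted p 0.0261, 0.0368 and 0.0341). They were called in 3, 2 and 1 of the 8 fits, with the largest adjusted p at 0.0808 without cKO replicate 3, 0.108 without cKO replicate 3 and 0.0934 without cKO replicate 2. Ercc5, which rose with the p53 targets, belongs to another repair pathway.

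A share of the extracellular matrix genes rose in the cKO, and none fell. All 14 collagens and collagen enzymes tested had a positive log2 fold change (13 after median centring), with a median of 0.27, where 58.5% of all genes were positive, and 5 rose (4.16% of all genes did): Col1a1, Col3a1, Col5a2, Col18a1 and Col23a1. Of 29 other matrix genes, 24 were positive (22 after centring) and 9 rose, with a median of 0.26: Fn1, Serpine2, Dcn, Aebp1, Sulf1, Sparc, Fmod, Efemp1 and Lamc1. Fn1 (chr1:71585473-71653280, minus strand), which encodes fibronectin, was at 334, 381, 355 and 393 TPM in the control libraries and 666, 609, 601 and 640.2 TPM in the cKO libraries (log2 fold change 0.78 ± 0.062 SE, adjusted p 1.07e-04 by limma). Serpine2 (chr1:79794317-79858665, minus strand), a secreted inhibitor of thrombin and other proteases, was at 104, 113, 90.9 and 123 TPM in the control libraries and 202, 187, 189 and 217 TPM in the cKO libraries (log2 fold change 0.88 ± 0.090 SE, adjusted p 4.90e-04 by limma). In both the lowest cKO library was more than 1.5 times the highest control. The proteoglycan decorin (Dcn) was at 49.8, 46.2, 48.2 and 39.6 TPM in the control libraries and 74.9, 79.4, 69.8 and 60.5 TPM in the cKO libraries (log2 fold change 0.62 ± 0.095 SE, adjusted p 0.00635 by limma). Col1a1, a chain of collagen type I, was at 47.6, 46.8, 43.9 and 37.7 TPM in the control libraries and 65.05, 84.2, 64.8 and 65.6 TPM in the cKO libraries (log2 fold change 0.65 ± 0.10 SE, adjusted p 0.00652 by limma). The library of cKO replicate 2 was the highest for Col1a1, and no library overlapped with the other group in either gene. Col3a1, of collagen type III, was at 138, 148, 124 and 165 TPM in the control libraries and 195, 195, 194 and 206 TPM in the cKO libraries (log2 fold change 0.46 ± 0.078 SE, adjusted p 0.00939 by limma). Col18a1, a basement membrane collagen, rose from 192 ± 23.5 to 273 ± 11.9 TPM, and Aebp1, a collagen-binding protein gene, rose from 20.6 ± 0.745 to 27.5 ± 1.82 TPM (limma adjusted p 0.00685 and 0.00705).

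These 7 genes, Fn1, Serpine2, Dcn, Col1a1, Col3a1, Col18a1 and Aebp1, were called in all 8 leave-one-out fits. The other 7 were not: the largest adjusted p was 0.0723 without cKO replicate 3 for Col5a2, 0.0614 without cKO replicate 3 for Col23a1, 0.0537 without cKO replicate 2 for Sulf1, 0.0928 without cKO replicate 4 for Sparc, 0.0998 without control replicate 1 for Fmod, 0.0959 without cKO replicate 2 for Efemp1 and 0.0996 without control replicate 1 for Lamc1. When 1 library was left out, between 4 and 10 of the other matrix genes rose, with 4 without cKO replicate 2 and 5 without cKO replicate 1 or 4. Between 3 and 6 of the collagen genes did, with 3 without control replicate 1, cKO replicate 1 or cKO replicate 3. Col18a1, Aebp1 and Lamc1 share their loci with genes of the opposite strand.

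Of the markers of the epicardium and its mesenchymal derivatives, 1 of 6 tested rose, Tcf21 (4.16% of all genes did). The summed TPM of the 7 markers held was 51.9 to 72.1 TPM in the control libraries and 77.99 to 90.8 TPM in the cKO libraries, with no overlap. Most of that sum is Tcf21 (chr10:22817263-22820143, minus strand), a transcription factor gene of epicardial cells and fibroblasts, at 36.3, 31.2, 34.6 and 39.6 TPM in the control libraries and 62.4, 58.9, 56.7 and 53.6 TPM in the cKO libraries (log2 fold change 0.70 ± 0.078 SE, adjusted p 9.69e-04 by limma). It shares its locus with a gene of the opposite strand. Hic1 averaged 12.4 ± 1.104 TPM over the controls and 13.97 ± 1.32 TPM over the cKO libraries, and Prrx1, Ddr2, Meox1 and Rspo3 were between -0.03 and 0.23 on the log2 fold change scale, none called. Tcf21 was the 1 tested marker of the list whose groups did not overlap, where 14.5% of all genes did not. The list median was 0.18, and it moved between 0.07 and 0.55 when 1 library was left out. Twist2 was under 1 TPM in all 8 libraries, and Wt1 and Tbx18 were not analysed here. Epithelial markers, which the epicardium shares in part, summed to 122 to 147 TPM in the control libraries and 164 to 185 TPM in the cKO libraries, again with no overlap. Krt19, a keratin gene, was at 95.01, 98.5, 81.7 and 88.6 TPM in the control libraries and 126, 112, 134 and 114 TPM in the cKO libraries (log2 fold change 0.41 ± 0.076 SE, adjusted p 0.0143 by limma), was called in all 8 leave-one-out fits and made up most of that sum, while Cldn7, Elf3 and Krt10 were under 1 TPM and Itln1 was at 0 in every library. Krt19 was the 1 epithelial marker of 4 tested whose groups did not overlap. In bulk tissue, more cells of a type and more RNA per cell cannot be told apart, and the part of these markers in the matrix changes was not tested.

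**Figure D4:**
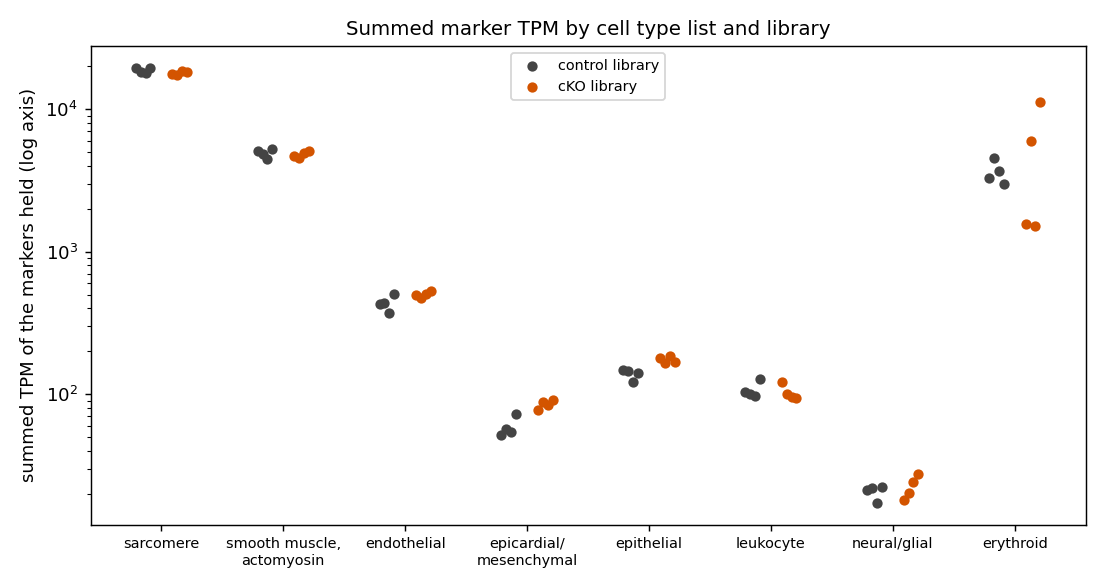
Summed TPM (vertical axis, log scale) of the held markers of 8 cell type lists in each of the 8 libraries. The epicardial and mesenchymal sums (51.9 to 72.1 against 78.0 to 90.8 TPM) and the epithelial sums do not overlap between groups, and the erythroid sums spread most among the cKO libraries. Most of the epicardial and mesenchymal sum is Tcf21, and most of the epithelial sum is Krt19.

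Endothelial markers were positive in 15 of 15 genes (13 after median centring), where 58.5% of all genes were positive, but none was called. Their median was 0.21 against 0.03 over all genes. Their sum was 374 to 502 TPM in the control libraries and 471 to 533 TPM in the cKO libraries, where the groups overlapped through control replicate 4. Cd34 averaged 69.6 ± 7.06 TPM over the controls and 80.4 ± 4.08 TPM over the cKO libraries (log2 fold change 0.21, limma adjusted p 0.141), and Ramp2, a receptor modifier of the endothelium, averaged 154 ± 18.5 TPM over the controls and 175 ± 11.9 TPM over the cKO libraries (adjusted p 0.222). Without control replicate 3, the list median was 0.13. Of 21 smooth muscle and actomyosin genes, 1 rose (4.16% of all genes did) and 1 fell (2.56% did). The median of that list, 0.01, turned to -0.04 after median centring. Lmod1, which encodes the smooth muscle actin nucleator leiomodin 1, was at 2.31, 1.95, 1.47 and 1.997 TPM in the control libraries and 3.29, 3.02, 4.34 and 5.0999 TPM in the cKO libraries (log2 fold change 0.74 ± 0.15 SE, adjusted p 0.022 by limma). Csrp2, a LIM protein gene of muscle precursors, fell from 275 ± 18.2 to 224 ± 14.96 TPM (log2 fold change -0.29, limma adjusted p 0.0291). Lmod1 was called in 6 and Csrp2 in 2 of the 8 leave-one-out fits (largest adjusted p 0.0646 without cKO replicate 3 and 0.0808 without cKO replicate 3).

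No leukocyte gene of 7, erythroid gene of 7 or neural gene of 3 tested was called. The macrophage gene Lyz2 averaged 80.3 ± 2.24 TPM over the controls and 70.3 ± 5.29 TPM over the cKO libraries (limma adjusted p 0.0929). Leukocyte markers summed to 96.6 to 127 TPM in the control libraries and 94.1 to 122 TPM in the cKO libraries, with Ptprc, Fcgr2b, Slc11a1, Timd4 and Cd48 under 1 TPM throughout. The globin gene Hba-a1 averaged 1163 ± 272 TPM over the controls and 1539.9 ± 1379 TPM over the cKO libraries, a spread in the cKO group larger than its mean's difference from the controls, while its log2 fold change was below 0 (-0.08). Rescaling the libraries without the hemoglobin genes held, which are Hba-x, Hba-a1, Hba-a2, Hbq1a and Hbq1b, gave 175 calls, all of them among the 176. The beta globin genes were not analysed here, so their TPM stayed in every library total.

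Ccn2 had the largest change among the tested signalling genes. Ccn2 (chr10:24595442-24598683, plus strand), a matricellular protein gene that responds to TGF-beta and to YAP, was at 76.5, 102, 73.6 and 79.7 TPM in the control libraries and 128, 168, 168 and 159.5 TPM in the cKO libraries (log2 fold change 0.91 ± 0.11 SE, adjusted p 0.00212 by limma), and every cKO library was above every control. Tgfb2, a TGF-beta ligand gene of the heart, was at 17.1, 22.6, 17.4 and 23.9 TPM in the control libraries and 23.9, 31.8, 32.96 and 36.5 TPM in the cKO libraries (log2 fold change 0.60 ± 0.14 SE, adjusted p 0.0361 by limma). Its groups did not overlap, but control replicate 4 and cKO replicate 1 were at nearly the same level. Tgfb2 was called in 2 of 8 leave-one-out fits, with the largest adjusted p at 0.103 without control replicate 1. Of the 10 genes of the TGF-beta and BMP list, these 2 rose (4.16% of all genes did) and the other 8 were not called. The list median was 0.16 against 0.03 over all genes, and 0.11 against -0.02 after median centring. With 1 library left out, 2 rose without control replicate 4 or cKO replicate 1, and 1 rose without each of the others. The receptor gene Bmpr2 averaged 16.8 ± 1.22 TPM over the controls and 20.5 ± 2.13 TPM over the cKO libraries (adjusted p 0.0944 by limma), and the inhibitor gene Nog averaged 2.71 ± 0.697 TPM over the controls and 3.53 ± 0.613 TPM over the cKO libraries (adjusted p 0.323). Ccn2 and Tgfb2 overlap genes on the other strand and are uncertain.

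In the list of IGF and mTOR genes, 4 of 20 rose (4.16% of all genes did) and 1 fell (2.56% did). Between 1 (without control replicate 1, cKO replicate 2 or cKO replicate 3) and 5 (without control replicate 4) rose with 1 library left out, and 2 without control replicate 2, cKO replicate 1 or cKO replicate 4. Ddit4, which encodes an inhibitor of mTORC1 and which ATF4 and p53 are both known to activate, was at 31.4, 30.3, 24.7 and 36.5 TPM in the control libraries and 45.3, 43.7, 48.2 and 49.98 TPM in the cKO libraries (log2 fold change 0.60 ± 0.10 SE, adjusted p 0.0105 by limma). Igfbp2, a secreted IGF-binding protein gene, was at 88.99, 90.8, 75.6 and 83.96 TPM in the control libraries and 67.4, 61.1, 57.96 and 63.2 TPM in the cKO libraries (log2 fold change -0.43 ± 0.070 SE, adjusted p 0.00745 by limma). Neither gene's groups overlapped, and both were called in all 8 leave-one-out fits. Irs1, the adaptor of the insulin and IGF receptors, was at 16.8, 19.8, 14.9 and 16.2 TPM in the control libraries and 20.6, 26.6, 26.8 and 26.7 TPM in the cKO libraries (log2 fold change 0.55 ± 0.11 SE, adjusted p 0.0178 by limma). Its cKO replicate 1 was the nearest to the controls. Foxo3, a transcription factor that Akt holds back, rose from 10.8 ± 1.54 to 14.8 ± 1.1998 TPM, and Igf2bp1, an RNA-binding protein gene, rose from 36.4 ± 3.08 to 44.4 ± 2.07 TPM (log2 fold changes 0.44 and 0.28, limma adjusted p 0.0355 and 0.0408). The largest adjusted p with 1 library left out was 0.0593 without cKO replicate 3 for Irs1, 0.0984 without cKO replicate 2 for Foxo3 and 0.106 without cKO replicate 4 for Igf2bp1. The ligand gene Igf1 averaged 11.6 ± 2.67 TPM over the controls and 16.6 ± 2.57 TPM over the cKO libraries (adjusted p 0.105), and Igfbp3, Igfbp4, Igfbp5, Grb10, Stk11 and Rps6kb1 were not called. Foxo3 and Igf2bp1 overlap a gene on the same strand.

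The remaining signalling lists were Wnt (15 genes tested), receptor tyrosine kinases and MAP kinases (23), and hedgehog and Notch (11). The others were JAK-STAT (12) and nuclear receptors and the clock (10). These lists held 4 called genes, all of which rose (4.16% of all genes did). None of the 4 was called in more than 2 of the 8 leave-one-out fits. Egfr, a receptor gene at a low level, was at 1.14, 0.803, 1.03 and 0.975 TPM in the control libraries and 2.003, 2.02, 1.43 and 1.66 TPM in the cKO libraries (log2 fold change 0.48 ± 0.11 SE, adjusted p 0.0361 by limma). Dusp3, a phosphatase gene of the MAP kinases, rose from 40.03 ± 3.27 to 49.1 ± 1.87 TPM. Ncstn, a subunit gene of the gamma-secretase that cleaves Notch, rose from 83.7 ± 5.42 to 99.4 ± 2.84 TPM, and Wnt9a rose from 2.61 ± 0.386 to 4.02 ± 0.445 TPM (limma adjusted p 0.0305, 0.0325 and 0.0341). In these 4 genes all cKO libraries were above all controls. Their largest adjusted p with 1 library left out was 0.103 without cKO replicate 2, 0.0928 without cKO replicate 3, 0.0934 without cKO replicate 2 and 0.0941 without cKO replicate 2, in that order. The neuregulin receptor genes were not called, with Erbb2 at 46.7 ± 5.47 TPM over the controls and 43.6 ± 1.58 TPM over the cKO libraries and Erbb4 at 9.08 ± 0.842 TPM over the controls and 9.51 ± 1.21 TPM over the cKO libraries (limma adjusted p 0.579 and 0.79). Lif, which encodes a cytokine that signals through JAK and STAT3, had a mean under 1 TPM over the 16 libraries and so was not among the tested genes. It was at 0.0635, 0.06796, 0.07798 and 0.148 TPM in the control libraries and 2.42, 2.36, 1.37 and 1.15 TPM in the cKO libraries, and in the fit without a filter on low values it rose (log2 fold change 1.35 ± 0.16 SE, adjusted p 0.00963 by limma), with an interaction of 1.27 (SE 0.17, limma adjusted p 0.0021). Every cKO library was above 1 TPM and every control under 0.2 TPM. The fit without a filter called 13 of the 2751 genes under it, and 2 of the 76 list members among them. Besides Lif it called Rgs5 of the smooth muscle list, a regulator of G protein signalling known from pericytes. Rgs5 was at 0.848, 0.617, 0.367 and 0.603 TPM in the control libraries and 1.35, 1.23, 1.34 and 1.27 TPM in the cKO libraries (log2 fold change 0.52 ± 0.095 SE, adjusted p 0.0454 by limma). Of the tested genes of JAK-STAT signalling, Stat3 (log2 fold change 0.17, adjusted p 0.452 by limma) and the other 11 were not called, nor were the 10 nuclear receptor and clock genes. Egfr, Ncstn and Wnt9a overlap genes on the other strand.

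Of 9 cardiac transcription factor genes, Hand1 was the 1 that fell (2.56% of all genes did). Hand1 (chr11:57828713-57832147, minus strand), a factor of the left ventricle and outer curvature, was at 65.5, 58.0, 55.6 and 71.5 TPM in the control libraries and 40.2, 36.3, 45.1 and 41.7 TPM in the cKO libraries (log2 fold change -0.60 ± 0.091 SE, adjusted p 0.00573 by limma), with no overlap. It shares its locus with a gene of the opposite strand. The other 8 were not called: Hey2, a factor of the compact wall, averaged 73.5 ± 8.52 TPM over the controls and 72.4 ± 4.37 TPM over the cKO libraries (limma adjusted p 0.946), and Myocd, the cofactor of serum response factor, averaged 43.3 ± 4.02 TPM over the controls and 34.6 ± 4.25 TPM over the cKO libraries (log2 fold change -0.32, adjusted p 0.0885 by limma). Among the 24 sarcomere and costamere genes, 1 rose, Sgca, from 24.02 ± 3.09 to 32.2 ± 2.46 TPM (log2 fold change 0.41 ± 0.093 SE, adjusted p 0.0311 by limma). It encodes alpha-sarcoglycan of the dystrophin complex, shares its locus with a gene of the opposite strand and was called in 2 of 8 leave-one-out fits (0.0841 without control replicate 2). With 4.16% of all genes rising, 1 of 24 does not set the sarcomere and costamere list apart. The list median was -0.01, and the marker sum was 17877 to 19533 TPM in the control libraries and 17371 to 18419 TPM in the cKO libraries. Myl7 averaged 3634 ± 186 TPM over the controls and 3476 ± 311 TPM over the cKO libraries and Des averaged 559 ± 41.99 TPM over the controls and 519.9 ± 26.4 TPM over the cKO libraries (limma adjusted p 0.662 and 0.403). None of 18 genes of calcium handling and conduction was called, with a median of 0.01 that turned to -0.03 after median centring. Phospholamban (Pln) averaged 624 ± 50.9 TPM over the controls and 626 ± 30.6 TPM over the cKO libraries, and the gap junction genes Gja1 and Gjc1 had log2 fold changes of -0.06 and -0.32 (limma adjusted p 0.742 and 0.162).

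The genes that ATF4 is known to activate were tested in 11 members, of which 1 rose (4.16% of all genes did) and 1 fell (2.56% did). Their median was -0.10 against 0.03 over all genes. Aldh1l2 (chr10:83487447-83534146, minus strand), which encodes a mitochondrial folate enzyme, was at 18.7, 16.8, 16.8 and 18.4 TPM in the control libraries and 11.503, 13.04, 12.3 and 11.6 TPM in the cKO libraries (log2 fold change -0.51 ± 0.069 SE, adjusted p 0.00277 by limma), with no overlap, and was called in all 8 leave-one-out fits. It shares its locus with a gene of the opposite strand. Ddit4, described above, was the member that rose. Among the other one-carbon genes, Shmt2 averaged 71.4 ± 8.88 TPM over the controls and 61.9 ± 4.12 TPM over the cKO libraries and Mthfd1l averaged 20.8 ± 1.22 TPM over the controls and 17.8 ± 2.29 TPM over the cKO libraries (log2 fold changes -0.20 and -0.22, limma adjusted p 0.245 and 0.194). The stress response factors Atf3 and Ddit3 had log2 fold changes of -0.13 and -0.05 (adjusted p 0.445 and 0.834). After median centring Shmt2, Mthfd1l, Mars1 and Aldh1l2 were called lower. The core TGATGNAA of the element bound by ATF4 with its C/EBP partners, searched on both strands, was in 2.23% of all windows. It was in 2 of the 10 windows of this list, Atf3 and Slc1a4, neither of which was called. Aldh1l2 had no window, so its promoter was not searched. In the list of tRNA charging, Aarsd1, which encodes an editing enzyme for misacylated alanine tRNA, fell from 50.2 ± 2.68 to 42.2 ± 1.94 TPM (log2 fold change -0.24, limma adjusted p 0.0361), with the largest adjusted p at 0.102 without control replicate 2.

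Energy metabolism showed few calls. Of 31 genes of the tricarboxylic acid cycle, respiration and mitochondrial carriers, 22 were negative, where 58.5% of all genes were positive, and the median was -0.08. In this list 1 gene fell (2.56% of all genes did). It was Ndufs7, a subunit of complex I, at 283, 284, 272 and 295 TPM in the control libraries and 259, 235, 252 and 248 TPM in the cKO libraries (log2 fold change -0.19 ± 0.048 SE, adjusted p 0.0438 by limma), called in 1 of 8 leave-one-out fits (0.124 without cKO replicate 2) and overlapping a gene on the same strand. None of 9 glycolysis genes (median -0.09) and none of 20 genes of the mitochondrial ribosome and import (median -0.08) was called. After median centring, 7, 3 and 4 genes of these lists were called lower, where 7.67% of all genes were. Citrate synthase (Cs) averaged 450.0 ± 23.3 TPM over the controls and 419 ± 6.57 TPM over the cKO libraries with an adjusted p of 0.276 by limma, and 0.018 after centring. Hk1, the first enzyme of glycolysis, averaged 216 ± 18.2 TPM over the controls and 202 ± 8.39 TPM over the cKO libraries, with adjusted p-values of 0.456 and 0.0473 by the same fits.

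In lipid metabolism, 1 of 18 genes fell (2.56% of all genes did) and 1 rose (4.16% did). Acsl3, which activates long-chain fatty acids, was at 46.2, 44.8, 42.5 and 43.2 TPM in the control libraries and 31.8, 33.2, 33.1 and 28.6 TPM in the cKO libraries (log2 fold change -0.47 ± 0.062 SE, adjusted p 0.00238 by limma). Soat1, which esterifies cholesterol, was at 21.1, 18.9, 17.7 and 21.6 TPM in the control libraries and 26.6, 26.5, 27.3 and 28.6 TPM in the cKO libraries (log2 fold change 0.44 ± 0.072 SE, adjusted p 0.00781 by limma). Neither gene's groups overlapped, and both were called in all 8 leave-one-out fits, but Acsl3 overlaps genes on both strands. Gpx3, a secreted glutathione peroxidase gene and the called gene with the highest TPM, was at 1086, 949, 735 and 1034 TPM in the control libraries and 1397, 1319, 1298 and 1456 TPM in the cKO libraries (log2 fold change 0.54 ± 0.11 SE, adjusted p 0.0215 by limma). All 4 cKO libraries were above the controls, and the call was lost without control replicate 2, cKO replicate 1 or cKO replicate 4 (largest adjusted p 0.0557 without cKO replicate 4). It was the 1 gene that rose of 15 in the redox list (4.16% of all genes did). Of the 18 genes of folding in the endoplasmic reticulum, 16 were positive (12 after centring), where 58.5% of all genes were, and none was called.

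Few genes of protein synthesis were called. None of 14 ribosomal protein genes was called, and their median of 0.04 turned to -0.01 after median centring. Of 26 genes of ribosome assembly, 1 rose, Utp20, a processing factor of the small subunit, from 12.2 ± 0.805 to 15.7 ± 0.466 TPM (log2 fold change 0.34 ± 0.068 SE, adjusted p 0.0181 by limma). It was called in 6 of 8 leave-one-out fits (0.0613 without cKO replicate 3). As 4.16% of all genes rose, 1 of 26 does not set the ribosome assembly list apart. The median of that list, 0.03, also turned, to -0.01. None of 12 translation factors, 7 cytosolic chaperones or 17 genes of autophagy and lysosomes was called.

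**Figure D5:**
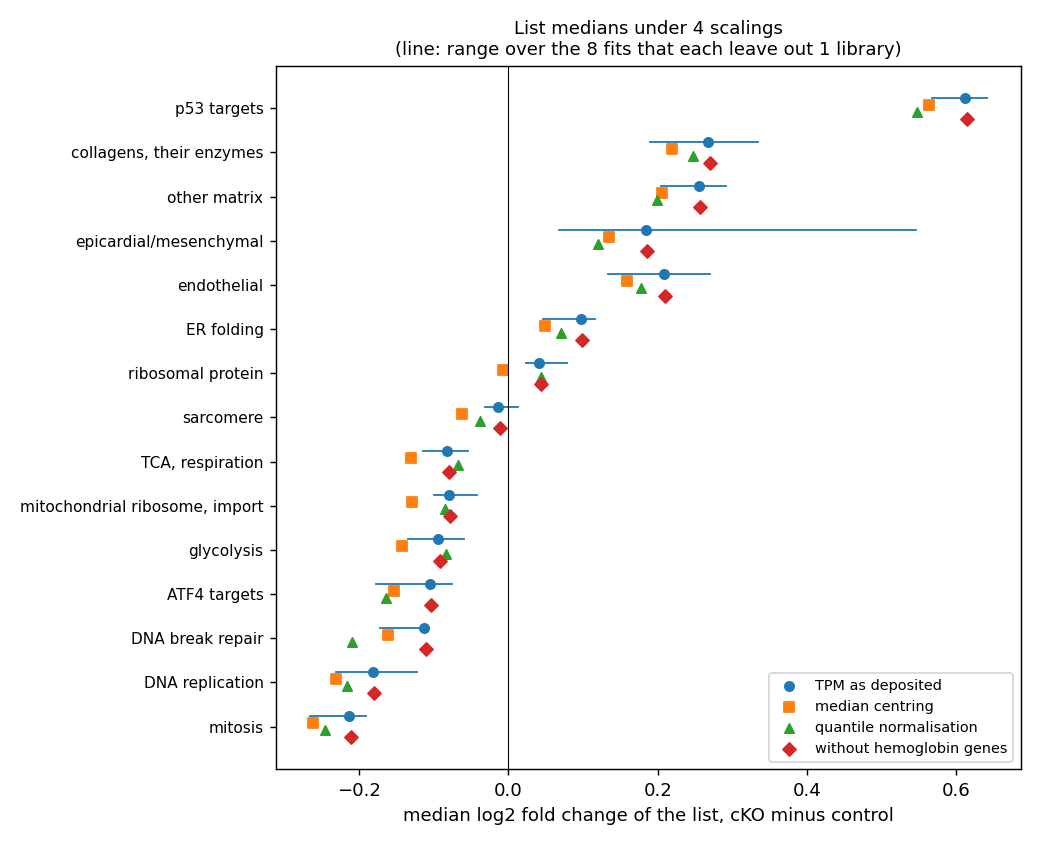
Median log2 fold change (cKO minus control, horizontal axis) of 15 lists under the TPM as deposited, median centring, quantile normalisation and rescaling without the hemoglobin genes held, with a line over the range of the 8 fits that each leave out 1 library. The p53 target, matrix and mitosis medians keep their side of 0 in every setting shown, and the ribosomal protein median does not.

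The naming rule, which takes the 15 largest rises and the 15 largest falls without overlap, added genes outside the lists. Cd55, which protects cells from complement, was at 0.815, 1.03, 0.942 and 0.953 TPM in the control libraries and 3.83, 5.58, 3.99 and 5.603 TPM in the cKO libraries (log2 fold change 1.56 ± 0.13 SE, adjusted p 1.41e-04 by limma). The long noncoding RNA B230206L02Rik was at 3.83, 2.68, 2.57 and 2.83 TPM in the control libraries and 12.7, 8.78, 10.7 and 8.75 TPM in the cKO libraries (log2 fold change 1.49 ± 0.14 SE, adjusted p 2.98e-04 by limma). Both share their loci with genes of the opposite strand and are uncertain. Slc19a2, a thiamine transporter gene, was at 7.57, 7.22, 6.06 and 9.11 TPM in the control libraries and 15.5, 14.3, 14.9 and 15.5 TPM in the cKO libraries (log2 fold change 0.93 ± 0.10 SE, adjusted p 9.69e-04 by limma), and Snhg15, a host gene of small nucleolar RNA, was at 18.3, 15.1, 14.3 and 15.2 TPM in the control libraries and 32.5, 28.8, 28.6 and 28.5 TPM in the cKO libraries (log2 fold change 0.88 ± 0.083 SE, adjusted p 2.98e-04 by limma). Lhx9, a LIM homeobox gene, was at 0.935, 0.316, 0.376 and 0.487 TPM in the control libraries and 2.29, 1.69, 1.38 and 2.28 TPM in the cKO libraries (log2 fold change 0.93 ± 0.16 SE, adjusted p 0.0105 by limma). In these 5 genes no cKO library reached down to the controls, and Snhg15 overlaps a gene on the same strand and is uncertain. The predicted genes Gm47761, Gm47939 and Gm51636 rose together from control means between 1.75 and 2.11 TPM (log2 fold changes 0.94, 0.92 and 0.84, limma adjusted p 0.0148, 0.0173 and 0.0197). They are annotated as pseudogenes, whose reads may be shared with near-identical copies. Gm47939 and Gm51636 lost their calls without control replicate 1 (adjusted p 0.0512 and 0.0609).

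On the falling side, Pimreg, a gene of the metaphase to anaphase transition, was at 74.4, 64.7, 66.2 and 76.8 TPM in the control libraries and 47.9, 50.001, 47.3 and 49.2 TPM in the cKO libraries (log2 fold change -0.52 ± 0.064 SE, adjusted p 0.00173 by limma). Fignl1, which acts in homologous recombination, was at 45.03, 44.9, 38.8 and 44.02 TPM in the control libraries and 28.8, 29.4, 29.9 and 33.9 TPM in the cKO libraries (log2 fold change -0.49 ± 0.071 SE, adjusted p 0.00463 by limma). Both genes' groups stood apart in every library, and Pimreg shares its locus with a gene of the opposite strand. The pseudogenes Gm15452, Gm4739 and Gm3571 fell by between 0.47 and 0.50 on the log2 scale and carry the same uncertainty of shared reads. Ppm1h, a phosphatase gene, was at 2.62, 2.68, 2.33 and 2.24 TPM in the control libraries and 0.151, 2.003, 0.1502 and 0.129 TPM in the cKO libraries (log2 fold change -1.25 ± 0.29 SE, adjusted p 0.0341 by limma), where cKO replicate 2 was within reach of the controls and the other 3 were not. Tcf24, Bend6 and 2900009J06Rik, all low, and Hap1, which encodes huntingtin-associated protein 1, had log2 fold changes of -0.70, -0.63, -0.71 and -0.58. Ppm1h and these 4 were called in 2 or 3 of the 8 leave-one-out fits (largest adjusted p 0.0922 without cKO replicate 3, 0.072 without cKO replicate 2, 0.0864 without control replicate 1, 0.102 without cKO replicate 3 and 0.0718 without cKO replicate 2). Ppm1h, Bend6 and 2900009J06Rik overlap other genes.

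Whether these changes differed from those of the line with exon 2 alone flanked was tested by the interaction of line and knockout over all 16 libraries. Line and batch coincide, so a difference between lines and one between batches cannot be told apart. The interaction was called for 62 genes (2.37%), and 56 of them were among the 176. Of the 12 p53 targets, 8 had a called interaction, all positive, and the list median in the other line was 0.02. Ccng1 had a log2 fold change of 0.06 there and an interaction of 1.46 (SE 0.10, limma adjusted p 1.82e-07). For Phlda3 the corresponding values were 0.01 and 1.12 (SE 0.11, limma adjusted p 2.30e-05). Mitosis genes had a median of 0.00 in the other line, and 4 of 30 had a called interaction, Cdk1 among them with -0.40 (SE 0.070, limma adjusted p 0.00437). Collagens and other matrix genes had medians of -0.06 and -0.03 there, and 1 and 4 interactions were called. For Fn1 the interaction was 0.65 (SE 0.10, limma adjusted p 0.00131), for Serpine2 it was 0.95 (SE 0.11, limma adjusted p 1.01e-04), and for Tcf21 it was 0.68 (SE 0.11, limma adjusted p 0.00255). The controls of the lines also differed in level. Fn1 averaged 635 TPM over the exon 2 controls and 366 TPM over the exon 2-3 controls. The same means were 127 and 108 TPM for Serpine2 and 41.8 and 35.4 TPM for Tcf21. For Ccng1 they were 122 and 95.4 TPM, and for Phlda3 37.5 and 39.4 TPM. For Cdk1 they were 52.4 and 68.2 TPM, and for Cd55 3.66 and 0.935 TPM. The exon 2-3 cKO means were 629 TPM for Fn1, 199 TPM for Serpine2, 57.9 TPM for Tcf21 and 275 TPM for Ccng1. They were 87.1 TPM for Phlda3, 51.1 TPM for Cdk1 and 4.75 TPM for Cd55. The part of these control levels in the interactions was not tested.

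Of the 11 ATF4 targets, 3 had a called interaction (2.37% of all genes did). All 11 were positive in the exon 2 line, with a median of 0.24, and the 3 called interactions were negative: Aldh1l2, with 0.82 in that line and an interaction of -1.33 (SE 0.092, limma adjusted p 1.82e-07), Shmt2 with -0.83 (SE 0.12, limma adjusted p 6.13e-04) and Stc2 with -0.74 (SE 0.16, limma adjusted p 0.0192). The share of all genes that were positive in the exon 2 line was not taken, so the 11 have no background to stand beside. Ddit4 had a log2 fold change of 0.06 in that line, and its interaction of 0.54 (SE 0.16, limma adjusted p 0.0897) was not called. Of the other genes named above, the interaction was also called for Hand1 at -0.52 (SE 0.13, limma adjusted p 0.0481), Krt19 at 0.56 (SE 0.12, limma adjusted p 0.0215), Ccn2 at 0.83 (SE 0.20, limma adjusted p 0.0341), Acsl3 at -0.43 (SE 0.087, limma adjusted p 0.0128) and Gpx3 at 0.67 (SE 0.14, limma adjusted p 0.0181). It was not called for Irs1 at 0.46 (SE 0.14, limma adjusted p 0.106), Igfbp2 at -0.25 (SE 0.11, limma adjusted p 0.312), Col3a1 at 0.54 (SE 0.15, limma adjusted p 0.0687) and Mdm2 at 0.33 (SE 0.11, limma adjusted p 0.147).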

How the data were processed

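RNA-seq of E11.5 ventricles was analysed in 4 cKO and 4 control libraries of the exon 2-3 line, with the 8 of the exon 2 line for the interaction. The authors deposited 1 table of TPM values, with gene symbol, chromosome, strand, start and end in each row name. The submitters' processing notes name the build GRCm38 and FastQC, Trim Galore 0.6.7, HISAT2 2.2.1, StringTie 2.2.1, featureCounts and DESeq2, without roles, so which program made the TPM is not given in the sources used here. Row coordinates were identical to RefSeq's on GRCm38.p6 in 5919 of 5921 rows. The table was held in part (chromosomes 1 and 10, and 11 up to position 106501211), and its last line was incomplete and left out. Groups came from the sample titles. Genes with a mean of at least 1 TPM over 16 libraries (2620) were fitted as log2(TPM + 1) with limma 3.58.1 (lmFit, eBayes with trend) in R 4.3.3, and p-values were adjusted by Benjamini-Hochberg over all of them, two-sided, threshold 0.05. The interaction came from a group means model over 16 libraries. The procedure was tested on simulated data. Depth is unknown, so no counting interval is given. Alternatives were a pseudocount of 0.1, no filter, a minimum mean of 5 TPM, a filter over the 8 libraries, median centring, quantile normalisation, rescaling without the hemoglobin genes held, 1 fit over 16 libraries, the replicate number as a block, no trend, array weights, a threshold of 0.01 and leaving out each library. The rule for named genes takes the 15 largest rises and the 15 largest falls among genes called without overlap, and up to 5 called members of each list with the smallest adjusted p. Other genes were picked once their values were known. The samples, lists and rule were chosen with earlier results of these data known. Lists were described by counts and medians, with no set test. The result of 1 gene is not reported here. Overlaps of genes were taken from the row coordinates. Promoter sequences came from RefSeq, and pandas 2.3.3 and matplotlib 3.10.9 made the tables and figures.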

Additional observations from a re-analysis of the deposited data

Results flagged for a closer look

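In 13 of 150 groups of 4 libraries of the named genes, 1 library lay far from the other 3, beyond Dixon's 95% critical value, where chance gives about 1 in 20. In the cKO group the library farthest above the rest was replicate 1 for Snhg15 (32.5 TPM, next 28.8), replicate 2 for Ppm1h (2.003, next 0.151), Col1a1 (84.2, next 65.6) and Cenpf (18.5, next 16.4), and replicate 4 for Col3a1 (206, next 195), Igf2bp1 (47.5, next 43.6) and Prim1 (34.98, next 32.5). It was the lowest for Ccng1 in replicate 4 (258 TPM, next 279) and for Irs1 in replicate 1 (20.6, next 26.6). In the control group the highest stood apart for Gm51636 in replicate 4 (2.43 TPM, next 1.62) and for Nek2 in replicate 2 (22.7, next 21.8). Replicate 3 was the lowest for Fignl1 (38.8, next 44.02) and Igf2bp1 (31.8, next 37.2). Control replicate 3 is also the library with the lowest median of all genes.

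The change differed between the 2 lines by limma's interaction term (exon 2-3 line minus exon 2 line, log2 scale, adjusted p under 0.05) for 35 of the 75 named genes. These genes were named for their change in the exon 2-3 line, which is a part of the interaction, so nothing is read from that count against the 2.37% called among all genes. It was positive for Zfp365 (1.45), Cd55 (1.94), Ccng1 (1.46), B230206L02Rik (1.64), Phlda3 (1.12), Slc19a2 (0.81), Ccn2 (0.83), Serpine2 (0.95), Snhg15 (0.96), Btg2 (0.84) and Ercc5 (0.90). It was also positive for Tcf21 (0.68), Col18a1 (0.42), Fn1 (0.65), Dcn (0.64), Aebp1 (0.44), Krt19 (0.56), Dusp3 (0.34), Ncstn (0.34), Soat1 (0.41), Gpx3 (0.67), Apaf1 (0.51) and Perp (0.69). It was negative for 2900009J06Rik (-1.38), Hand1 (-0.52), Hap1 (-0.66), Pimreg (-0.51), Aldh1l2 (-1.33), Fignl1 (-0.52), Acsl3 (-0.43), Gm4739 (-0.50), Cdk1 (-0.40), Top2a (-0.45), Nuf2 (-0.44) and Bard1 (-0.44). Line and batch coincide, so the 2 cannot be told apart in these values.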

How the results depend on the processing

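No named gene changed direction under any setting run. Of the 75, all were called under a pseudocount of 0.1, median centring, array weights, a filter over the 8 libraries and rescaling without the hemoglobin genes held. There were 73 under quantile normalisation, 74 in the fit over 16 libraries, 67 without the trend, 33 at a threshold of 0.01 and 44 without a filter on low values, where more genes were tested. Leaving out 1 library kept between 43 and 68. The count of calls was 91 without a filter (5371 genes tested), 311 under quantile normalisation, 343 under median centring, 265 with array weights and 43 at a threshold of 0.01, and between 70 and 190 with 1 library left out. For the interaction the count was 133 under quantile normalisation, 127 under median centring, 136 with array weights, 26 at the threshold of 0.01 and between 36 and 84 with 1 library left out, against 62. The cause of these moves was not tested. With the replicate number as a block, 149 genes were called (130 of the 176) and 68 interactions. Samples of the same number correlated at -0.03, 0.05, -0.01 and 0.21 in their deviations from the group means, and 1 of 4 controls correlated best with its own number. These values gave no sign of pairing by number, but with 4 libraries a group they cannot exclude it. TPM keeps no depth, so the precision of genes near 1 TPM is unknown.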

Other observations

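Of the 109 called genes outside the lists, 15 more are given here. They were chosen by hand after their values were seen, and no share of the 109 is drawn from them. Among those that fell were Fbxo5, an inhibitor of the anaphase-promoting complex, from 33.2 ± 1.33 to 25.6 ± 1.55 TPM, Spag5, a spindle protein gene, from 29.8 ± 1.95 to 22.8 ± 2.21 TPM, Sgo2a, which protects centromeric cohesion, from 7.62 ± 0.3297 to 5.702 ± 0.348 TPM, and Cenpv from 18.9 ± 1.73 to 13.5 ± 1.03 TPM (limma adjusted p 0.00909, 0.023, 0.0232 and 0.0133). Fbxo5 and Cenpv were called in all 8 leave-one-out fits, Spag5 in 3 (0.0717 without cKO replicate 3) and Sgo2a in 4 (0.0757 without control replicate 1). Tob1, an antiproliferative gene related to Btg2, rose from 17.4 ± 2.303 to 27.1 ± 2.34 TPM (log2 fold change 0.62, limma adjusted p 0.00736), called in all 8 fits. Shmt1, the cytosolic counterpart of Shmt2, fell from 32.6 ± 1.11 to 26.4 ± 1.19 TPM (adjusted p 0.0155 by limma, 0.056 without cKO replicate 3). Chchd10, a mitochondrial intermembrane protein gene, fell from 206 ± 14.1 to 165 ± 5.498 TPM (adjusted p 0.0124), and Mrpl27, of the mitochondrial ribosome, fell from 85.9 ± 6.87 to 68.02 ± 1.0496 TPM (adjusted p 0.0143). Spag5, Chchd10 and Mrpl27 overlap other genes.

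Among those that rose, Lrp1, an endocytic receptor gene, rose from 13.003 ± 1.14 to 18.97 ± 1.41 TPM, Itga3, an integrin chain that binds laminin, rose from 12.9 ± 0.688 to 16.8 ± 0.672 TPM, and Plxnc1, a semaphorin receptor gene, rose from 11.6 ± 0.908 to 15.3 ± 0.0464 TPM (limma adjusted p 0.00705, 0.0138 and 0.0138). Vnn1, a pantetheinase gene, rose from 8.299 ± 1.01 to 14.3 ± 1.35 TPM, and Ebf1, a transcription factor gene, rose from 5.59 ± 0.861 to 9.05 ± 0.882 TPM (adjusted p 0.00332 and 0.0133 by limma). Arl8a, a GTPase gene of lysosome transport, rose from 21.4 ± 3.56 to 34.6 ± 1.85 TPM, and Sgsm2, which encodes a regulator of small GTPases, rose from 9.06 ± 0.741 to 14.9 ± 0.697 TPM (adjusted p 0.00816 and 0.00108 by limma). These 7 genes were called in all 8 leave-one-out fits, and Lrp1 and Sgsm2 overlap other genes.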
